A study of Mus musculus with 15 samples.

Results

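The step from CT16 to CT20, the middle to the late part of the subjective night, was followed in ribosome profiling libraries of mouse liver. Its members were the 4 libraries titled CT16 and CT20, 2 at each time, out of 14 libraries at 7 times. All groups were whole liver of wild-type C57BL/6N males, 8 to 10 weeks old, entrained to light and dark and killed in constant darkness from 24 h after lights were left off. No group carried an allele or a drug, and the groups differed in the circadian time of sampling, CT16 (16 h) or CT20 (20 h). The study's methods give 2 mice at each time, so that a p-value measures the spread between the livers of a time, pooled over the 7 times. Each library counts the mRNA fragments protected by ribosomes, so that a value reflects both how much mRNA was present and how densely it was occupied, and these cannot be told apart here. In whole tissue, fewer cells of a type and less RNA per cell cannot be told apart either.

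Total counts in the 4 libraries ran from 46583013 to 59581901, within the range of 40593197 to 90458783 of all 14. Some facts of the libraries bear on what follows. Every count of CT16 replicate 2 was even, against 48.9% to 50.4% of the nonzero counts of the other 13 libraries. Whether its reads were counted double was not tested. If they were, its read numbers below are 2 times too high. With its counts halved, 83 transcripts were called in place of the 82 given below. The transcripts of the major urinary proteins (Mup) held 42.6% and 61.8% of the counts at CT16, and 66.8% and 56.0% at CT20. CT20 replicate 2 held transcripts of pancreatic acinar cells. The 24 acinar markers found summed to 5042 CPM (counts relative to the library's total, scaled by TMM) in it, against 3.30 and 2.71 CPM at CT16, 7.75 CPM in CT20 replicate 1 and 4.36 to 96.2 CPM in the 10 libraries of other times. All 24 had reads in CT20 replicate 2, and 15, 17 and 13 of them were at 0 in CT16 replicate 1, CT16 replicate 2 and CT20 replicate 1. Therefore 40 transcripts with over 50% of their scaled counts in this library were left out of 17299, and 17259 transcripts of 11616 genes were tested. The lowest such share among those left out was 55.3%, for Nupr1, and the highest among those kept was 42.0%, for Klk1b4. The 7 hepatocyte markers summed to 34792 to 45318 CPM in the 4 libraries with none at 0, as the label of liver requires, and the lymphocyte and neutrophil markers summed to less than 1 CPM in each of the 4. Stellate markers summed to 112 and 99.7 CPM at CT16 and 122 and 114 CPM at CT20, and erythroid markers to 60.1 and 63.3 CPM at CT16 and 114 and 74.7 CPM at CT20. The erythroid markers Hbb-b1 and Hbb-bs had the same values, as had Hbb-b2 and Hbb-bt, so that the erythroid sum counts their reads more than once. Bile duct markers summed to 11.3 and 11.04 CPM against 14.9 and 15.6 CPM. The 2 times did not overlap in any of these sums, and the part of these cells in the results was not tested.

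The mammalian clock is a loop of transcription and translation. BMAL1 (gene symbol Arntl) pairs with CLOCK or NPAS2 and drives genes that carry an E-box, among them the Per and Cry repressors, the REV-ERB receptors Nr1d1 and Nr1d2, the PAR bZIP factors Dbp, Tef and Hlf, and the DEC repressors Bhlhe40 and Bhlhe41. PER and CRY proteins then shut the activators off, and REV-ERB and ROR receptors compete at ROR elements, through which Bmal1 itself is driven. In liver this loop is known to time sterol, fatty acid, bile acid, glucose and heme metabolism, together with signals of feeding.

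At CT20, 82 of 17259 transcripts differed from CT16 (0.475%; edgeR quasi-likelihood F test, Benjamini-Hochberg adjusted p under 0.05), 36 of them higher (0.209%) and 46 lower (0.267%). With the transcript of highest mean count standing for each gene, 57 of 11616 genes were called (0.491%), of which 25 rose (0.215%) and 32 fell (0.275%). The median log2 fold change over all genes was -0.01. The genes that rose include those of a binding protein of insulin-like growth factors (Igfbp1), an elongase of very long fatty acids (Elovl3), a ubiquitin ligase (Rnf125) and a water channel (Aqp8). Among genes that average 100 or more counts, those that fell most encode a lipid transporter (Mfsd2a), the clock output factor Dbp, a metallothionein (Mt1) and a kinase of the polo family (Plk3). In each of the 57 genes both CT20 libraries lay on the same side of both CT16 libraries, which was also so for 16.9% of all genes tested on the higher side and 18.8% on the lower side. The count depended on the scale and on single libraries. With the total count as scale, which moved the median log2 fold change of all transcripts to -0.34, 85 transcripts were called, 9 higher and 76 lower at CT20. Without CT20 replicate 2, 179 transcripts were called, 25 higher and 154 lower, and without CT20 replicate 1, 34 were called. Without CT16 replicate 1 and without CT16 replicate 2 the counts were 51 and 50. A fit without a library leaves 1 library for its time, which is then assumed to vary like the pairs of the other times. All 57 genes had the same sign without each of the 4 libraries, 12 had a fold that moved by over 1.5 times without one of them, and 10 of the 57 were still called without any single one: Depp1, Elovl3, Rnf125, Aqp8, Acacb and Clpx, which rose, and Dbp, Usp2, Lpin1 and Hspa8, which fell. The plot of fold change against p shows that the called transcripts stand on both sides of 0, and that no gene is called below a change of 0.79 in either direction.

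**Figure D1:**
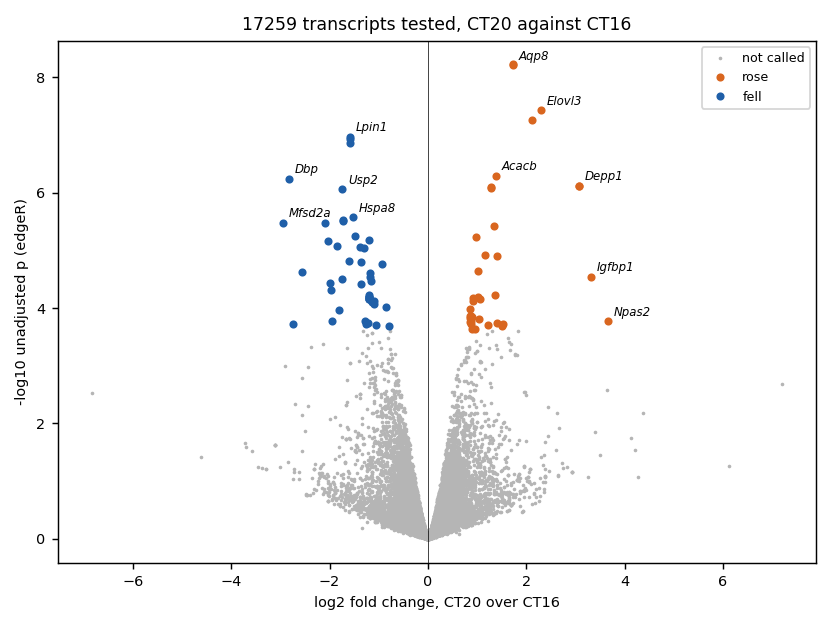
Each point is 1 of 17259 transcripts, with the log2 fold change of CT20 over CT16 on the x axis and -log10 of the unadjusted p of the edgeR test on the y axis. The 36 transcripts that rose are orange, the 46 that fell are blue, the others grey, and some of the called genes are named.

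Of the core clock activators, 1 of 3 rose, where 0.215% of all genes rose and 0.275% fell. Npas2, the partner of BMAL1 that can stand in for CLOCK, was read at 0.0972 and 0 CPM at CT16 and at 0.765 and 0.619 CPM at CT20. These are 6 and 0 counts against 32 and 37. Npas2 rose by 3.67 on the log2 scale (SE 0.77, adjusted p = 0.0422, edgeR), but the size is not well determined, at 8.37 without CT16 replicate 1 and 2.80 without CT16 replicate 2. The call was lost without CT16 replicate 2 (adjusted p = 0.255) and without CT20 replicate 1 (adjusted p = 0.156). Arntl, which encodes BMAL1, stood at 2.72 and 3.51 CPM at CT16 and at 7.39 and 9.06 CPM at CT20. Its libraries did not overlap, at a log2 fold change of 1.41 (SE 0.33) and an adjusted p of 0.0791. Clock had 7.42 and 6.57 CPM at CT16 and 6.46 and 8.37 CPM at CT20, which overlap.

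None of the 6 genes of the Per, Cry and Ciart repressors passed, and 5 of the 6 had a log2 fold change below 0, against 51.5% of all genes. Per1 was read at 7.52 and 4.86 CPM at CT16 and at 1.17 and 2.89 CPM at CT20 (log2 fold change -1.59, adjusted p = 0.104, edgeR). Ciart, a repressor also known as Chrono, had 2.30 and 1.43 CPM at CT16 and 0.239 and 0.384 CPM at CT20 (log2 fold change -2.55, adjusted p = 0.154, edgeR). Per2, Per3 and Cry2 gave log2 fold changes of -0.57, -0.98 and -0.40, and Cry1 gave 0.50 with libraries that stood higher at CT20. The adjusted p of these 4 genes ranged from 0.481 to 0.700. Thus, within the negative limb, the values of Cry1 lay on the other side of 0 from those of the Per genes, with no call on either.

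Both REV-ERB receptors fell while Rora did not pass. Nr1d1 had 8.21 and 4.10 CPM at CT16 and 1.43 and 1.72 CPM at CT20, and fell by 1.96 on the log2 scale (SE 0.37, adjusted p = 0.0202, edgeR). Nr1d2 had 6.76 and 8.57 CPM at CT16 and 1.89 and 2.66 CPM at CT20, and fell by 1.74 (SE 0.32, adjusted p = 0.0142). All 4 of these CT20 values lie below the lowest CT16 value of their gene. Rora, which activates through the same element, had overlapping libraries, with a log2 fold change of 0.16 and an adjusted p of 0.904. The calls of the REV-ERB genes did not hold without every library: Nr1d1 had an adjusted p of 0.237 without CT16 replicate 1 (log2 fold change -1.37), 0.236 without CT20 replicate 1 and 0.0595 without CT20 replicate 2, and Nr1d2 had 0.128 without CT16 replicate 2 and 0.216 without CT20 replicate 1.

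Among the PAR bZIP factors, which act on D-boxes, Dbp showed the largest fall of the clock genes that were called. It was read at 9.32 and 8.88 CPM at CT16 and at 0.622 and 1.86 CPM at CT20, and so fell by 2.83 on the log2 scale (SE 0.38, adjusted p = 0.00108, edgeR), or 7.09-fold. Its log2 fold change was -2.30 without CT20 replicate 1 and -3.87 without CT20 replicate 2. Tef had 16.2 and 13.98 CPM at CT16 and 5.21 and 6.49 CPM at CT20, and fell by 1.37 (SE 0.24, adjusted p = 0.00881), although this call was lost without CT16 replicate 1 (adjusted p = 0.0889) and without CT20 replicate 1 (adjusted p = 0.149). Hlf, the third factor of this family, had overlapping libraries (log2 fold change -0.48, adjusted p = 0.651). Nfil3, the repressor that competes with them at D-boxes, stood at 7.34 and 6.37 CPM at CT16 and at 12.8 and 9.86 CPM at CT20 (log2 fold change 0.72, adjusted p = 0.588). Of the DEC repressors, Bhlhe40 had 47.9 and 41.8 CPM at CT16 and 18.4 and 22.6 CPM at CT20 and fell by 1.13 (SE 0.22, adjusted p = 0.0244), and Bhlhe41 had a log2 fold change of -1.60 with 1.46 and 0.797 CPM at CT16 (adjusted p = 0.464). Bhlhe40 was still called without CT20 replicate 2, but had an adjusted p of 0.160, 0.0673 and 0.352 without CT16 replicate 1, CT16 replicate 2 and CT20 replicate 1. None of the 8 kinases and ubiquitin ligases that act on clock proteins passed, with log2 fold changes from -0.76 (Csnk1e) to 0.23 (Csnk2a1).

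Where promoter sequences were at hand (RefSeq, GRCm38.p6, 250 bases before to 50 after a start), the letters of clock motifs were looked up on both strands. They cover 22 of the 25 genes that rose and 24 of the 32 that fell. The E-box letters CACGTG, which read the same on both strands, were found in 6 of the 28 promoters of genes that fell (21.4%) and in 4 of the 25 promoters of genes that rose (16%), against 9.94% of the 11964 promoters of genes tested and 7.15% of all 32851 promoters in the table. Genes of both directions therefore held them. The following windows, each on the strand of its gene with the motif in capitals, show the E-box of genes of both directions.
Tef (fell, chr15:81802537-81802561, + strand): ctgtggctcCACGTGctgcagctgg
Eef2 (fell, chr10:81176579-81176603, + strand): cggcgccgtCACGTGacgcacccaa
Fkbp5 (fell, chr17:28486303-28486327, - strand): agggccagaCACGTGggcagcggtg
Rcan1 (fell, chr16:92466345-92466369, - strand): agtgggtgtCACGTGacaaaaatcc
Pfkfb3 (fell, chr2:11502128-11502152, - strand): ccttctctcCACGTGaaagggggct
Aqp8 (rose, chr7:123462210-123462234, + strand): cattgatccCACGTGgcccttgccc
Nr0b2 (rose, chr4:133553172-133553196, + strand): tagcaaggcCACGTGgagcttccag
Ppp1r3c (rose, chr19:36736693-36736717, - strand): ggaccggttCACGTGatctggcttt

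The letters of the ROR element, TAGGTCA, were in none of the promoters of called genes and in 2.1% of those of genes tested. They were in those of Arntl and Nfil3, whose CT20 libraries were both above their CT16 libraries without passing the test, and these windows are shown for that reason, with the motif in capitals (in Nfil3 it runs on the other strand).
Arntl (chr7:113207532-113207556, + strand): ggcagaaagTAGGTCAgggacggag
Nfil3 (chr13:52981036-52981060, - strand): gctcggaacTGACCTActaacacac
The D-box letters TTATGTAA were in none of the promoters of called genes, against 0.577% of those of genes tested. A match here is a description of letters in the window, and no match says only that these letters are not in it.

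Elovl3 had the lowest adjusted p among the liver genes listed as under clock control. It was read at 51.5 and 29.8 CPM at CT16 and at 176 and 227 CPM at CT20, a rise of 2.31 on the log2 scale (SE 0.26, adjusted p = 0.000210, edgeR). Of the 20 genes of this list, 2 rose and 6 fell, against 0.215% and 0.275% of all genes. Apart from Elovl3, the gene that rose was Ppp1r3c, the subunit that brings protein phosphatase to glycogen, at 10.8 and 7.89 CPM against 18.7 and 30.8 CPM (log2 fold change 1.41, adjusted p = 0.0434). It was not called without CT16 replicate 1 (adjusted p = 0.120), CT16 replicate 2 (0.394) or CT20 replicate 2 (0.149).

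The 6 that fell were Usp2, Lpin1, Noct, Alas1, Por and Klf10. Usp2, a deubiquitinase, had 18.2 and 15.8 CPM at CT16 and 5.24 and 4.96 CPM at CT20 (log2 fold change -1.74, SE 0.24, adjusted p = 0.00108, edgeR). Lpin1, a phosphatidate phosphatase of triglyceride synthesis, had 34.3 and 44.3 CPM against 15.4 and 10.8 CPM (log2 fold change -1.59, SE 0.19, adjusted p = 0.000336, edgeR). In both, the spread within a time was small beside the distance between the times. Noct, which encodes nocturnin, had 14.5 and 11.95 CPM against 5.19 and 4.31 CPM (log2 fold change -1.48, SE 0.24, adjusted p = 0.00453, edgeR), and its adjusted p without CT16 replicate 1 was 0.0522. Klf10, a zinc finger factor, fell by 1.26 on the log2 scale (adjusted p = 0.0435), and was called only when CT20 replicate 2 was the single library left out (adjusted p = 0.0429, against 0.145 to 0.460 without each of the other 3). Of the 12 members that did not pass, Nampt, the rate-limiting enzyme of NAD salvage, had a log2 fold change of -0.63 (adjusted p = 0.276) and Wee1, a cell cycle kinase, had -1.04 (adjusted p = 0.415).

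**Figure D2:**
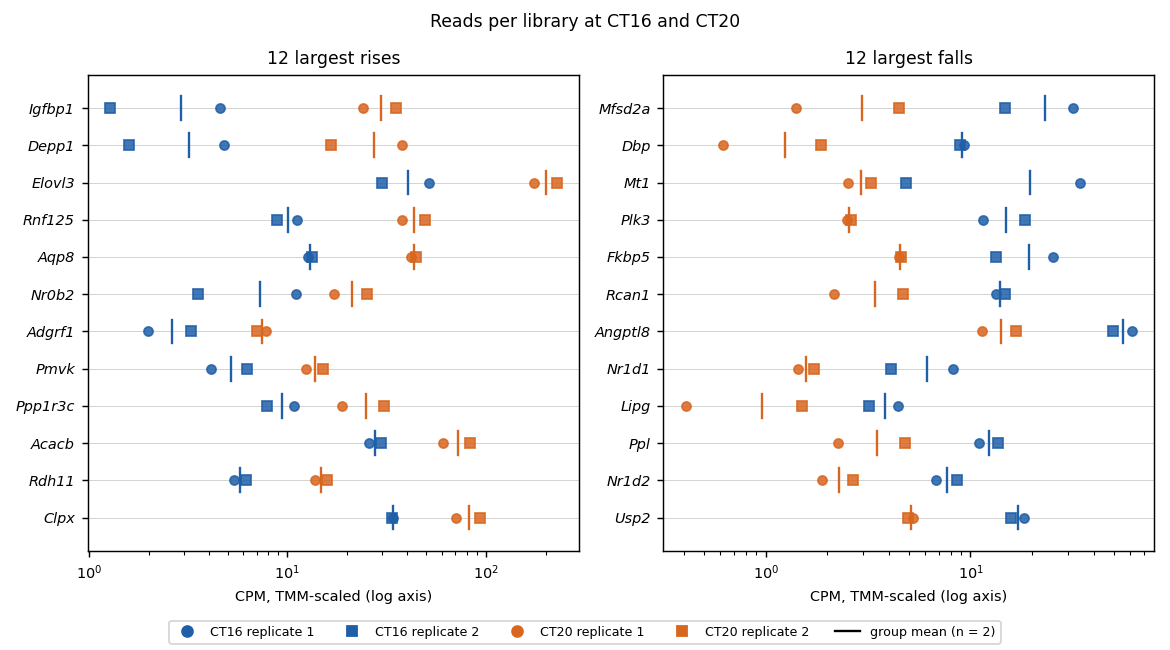
CPM on the TMM scale (x axis, log) of the 12 genes with the largest rise and the 12 with the largest fall among called genes that average 100 or more counts, in CT16 (blue) and CT20 (orange), replicate 1 as circles, replicate 2 as squares and the mean of the 2 libraries as a bar. The 2 times do not overlap in any of the 24 genes, and Mt1 shows the widest spread within a time, at CT16.

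The largest rise among genes with a mean of at least 100 counts was that of Igfbp1 (chr11:7197787-7202546, RefSeq, GRCm38.p6), a secreted protein whose gene is known to be held down by insulin. It was read at 4.57 and 1.27 CPM at CT16 and at 23.9 and 35.2 CPM at CT20. Both CT20 values lie over 5 times above the higher CT16 value, and the fitted rise was 3.32 on the log2 scale (SE 0.60, adjusted p = 0.0136, edgeR), with the call lost only without CT16 replicate 2 (log2 fold change 2.70, adjusted p = 0.186). Without CT16 replicate 1 its log2 fold change was 4.54. Depp1, known as a target of FOXO factors, had 4.78 and 1.59 CPM at CT16 and 37.8 and 16.6 CPM at CT20 (log2 fold change 3.08, SE 0.42, adjusted p = 0.00108, edgeR). The log2 fold change of Depp1 ranged from 2.37 without CT20 replicate 1 to 4.09 without CT16 replicate 1. Irs2, the insulin receptor substrate, had 4.15 and 1.67 CPM against 8.68 and 9.58 CPM, but did not pass (log2 fold change 1.64, adjusted p = 0.0629). Of the 15 genes of gluconeogenesis and glucose output, Igfbp1 was the only one called (0.491% of all genes), and 11 of 15 had a log2 fold change below 0, with a list median of -0.23. Slc37a4, the transporter of glucose 6-phosphate, had 133 and 128 CPM at CT16 and 77.2 and 71.1 CPM at CT20 (log2 fold change -0.81, adjusted p = 0.0629), and Pck1 and Slc2a2, the glucose transporter of hepatocytes, had -0.65 and -0.74 (adjusted p 0.402 and 0.232). G6pc, which makes free glucose, had 0.54 (adjusted p = 0.649). The named genes of this list thus lay on both sides of 0.

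Along with Elovl3, Aqp8 and Rnf125 had the lowest adjusted p among genes that rose. Rnf125, an E3 ubiquitin ligase, had 11.2 and 8.84 CPM at CT16 and 37.8 and 49.1 CPM at CT20 (log2 fold change 2.12, SE 0.24, adjusted p = 0.000238, edgeR). Aqp8, a channel for water, had 12.7 and 13.3 CPM at CT16 and 42.0 and 44.6 CPM at CT20, with the lowest adjusted p of the 57 genes (log2 fold change 1.74, SE 0.17, adjusted p = 5.23e-05, edgeR). Its replicates lay close together at both times. Clpx, the unfoldase of a mitochondrial protease, had 34.1 and 33.7 CPM against 70.6 and 93.5 CPM (log2 fold change 1.28, adjusted p = 0.00108, edgeR). Rdh11, a retinol dehydrogenase, had 5.39 and 6.18 CPM against 13.7 and 15.7 CPM (log2 fold change 1.35, adjusted p = 0.00319), with an adjusted p of 0.0613 without CT16 replicate 1. Adgrf1, an adhesion receptor coupled to G proteins, rose by 1.50 (adjusted p = 0.0446), and was not called without any one of the 4 libraries (adjusted p from 0.0630 to 0.353). Further genes that rose, Cldn1 (a tight junction protein), Pnrc1 (a coactivator of nuclear receptors), Hacl1 (a peroxisomal lyase), Tnfaip2, Coq8a (of coenzyme Q synthesis), Zfand5 and Hsd3b5, had log2 fold changes from 0.86 to 1.16 and adjusted p from 0.00453 to 0.0493. Each of these 7 lost its call without at least 1 of the 4 libraries.

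Of the 25 genes of cholesterol synthesis and uptake, 2 rose (0.215% of all genes) and none fell. A log2 fold change above 0 was found in 23 of 25, against 48.5% of all genes tested. With the total count as scale it was found in 16 of 25, but that scale also moved the median of all transcripts to -0.34. The list median was 0.63, against -0.01 for all genes. Pmvk, phosphomevalonate kinase, had 4.10 and 6.25 CPM at CT16 and 12.4 and 15.0 CPM at CT20 (log2 fold change 1.41, SE 0.24, adjusted p = 0.00727, edgeR), and lost its call without CT16 replicate 1 (adjusted p = 0.132). Hmgcs1, the cytosolic HMG-CoA synthase, had 24.1 and 30.0 CPM against 51.9 and 73.9 CPM (log2 fold change 1.22, SE 0.26, adjusted p = 0.0436, edgeR), and was not called without any one of the 4 libraries (adjusted p from 0.0601 to 0.285). Mvk, mevalonate kinase, had 1.68 and 2.43 CPM against 6.10 and 4.10 CPM, just short of a call (log2 fold change 1.31, adjusted p = 0.0506). Srebf2, the master regulator of the pathway, had 15.9 and 16.9 CPM at CT16 and 15.8 and 14.5 CPM at CT20 (log2 fold change -0.11, adjusted p = 0.940). CT16 replicate 1 and CT16 replicate 2 differed in this list, with 795 and 926 CPM in sum, against 1076 and 1121 CPM at CT20. With the total count as scale the list median was 0.33, beside -0.34 for all transcripts, and 0 genes were called. The list median was 0.33 without CT16 replicate 1 and 0.99 without CT16 replicate 2, beside -0.0006 for all transcripts in both fits. The promoter of Hmgcs1 held the letters TCACNCCAC of a sterol element, and so did 2 of the 28 promoters of genes that fell and 1.2% of the promoters of genes tested, and the window is shown with them in capitals.
Hmgcs1 (chr13:119690206-119690230, + strand): tcaccgtcTCACCCCACttcccagg

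Of the 19 genes tested of fatty acid synthesis, Acacb and Acss2 rose (0.215% of all genes) and none fell. With the total count as scale none of the 19 was called, and the list median of 0.41 became 0.07. The median of all transcripts moved from -0.01 to -0.34 with that scale. Acacb, the acetyl-CoA carboxylase of the mitochondrial surface, had 25.9 and 29.6 CPM at CT16 and 60.9 and 83.5 CPM at CT20 (log2 fold change 1.38, SE 0.18, adjusted p = 0.00108, edgeR). Acss2, which makes acetyl-CoA from acetate, had 33.7 and 47.8 CPM against 63.5 and 103 CPM (log2 fold change 1.03, SE 0.22, adjusted p = 0.0403, edgeR). Its adjusted p was 0.295 without CT16 replicate 1 and 0.175 without CT20 replicate 2. Acly, which makes acetyl-CoA from citrate, had 127 and 181 CPM against 249 and 366 CPM without passing (log2 fold change 1.00, adjusted p = 0.0847), and Elovl5 had a log2 fold change of 0.80 (adjusted p = 0.0791). Acaca, the cytosolic carboxylase, and Fasn, the synthase itself, had -0.09 and 0.31 with adjusted p of 0.963 and 0.869. Srebf1, the factor that drives the pathway, had 326 and 274 CPM at CT16 and 163 and 176 CPM at CT20 (log2 fold change -0.82, adjusted p = 0.406). Both acetyl-CoA suppliers and the mitochondrial carboxylase therefore stood higher at CT20, while the synthase and the cytosolic carboxylase overlapped.

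Of the 17 genes of bile acid synthesis and transport, 3 rose (0.215% of all genes) and none fell, with a list median of 0.01. Cyp8b1, the sterol hydroxylase that directs synthesis to cholic acid, had 67.2 and 106 CPM at CT16 and 182 and 167 CPM at CT20 (log2 fold change 1.01, SE 0.20, adjusted p = 0.0228, edgeR). Nr0b2, the receptor SHP that represses bile acid synthesis, had 11.03 and 3.55 CPM against 17.1 and 25.2 CPM (log2 fold change 1.53, SE 0.33, adjusted p = 0.0435, edgeR). Hsd3b7, an enzyme that modifies the sterol ring, had 86.1 and 84.3 CPM against 161 and 148 CPM (log2 fold change 0.86, adjusted p = 0.0380). Cyp7a1, the rate-limiting enzyme, had 88.4 and 133 CPM at CT16 and 46.0 and 54.5 CPM at CT20, the other way from Cyp8b1, and did not pass (log2 fold change -1.14, SE 0.25, adjusted p = 0.0528). The log2 fold change of Nr0b2 was 2.58 without CT16 replicate 1 and 0.94 without CT16 replicate 2. Of the 3 calls, that of Cyp8b1 was lost without CT16 replicate 1 (adjusted p = 0.213) and CT20 replicate 1 (0.193), that of Nr0b2 without all but CT16 replicate 1 (0.0659 to 0.221), and that of Hsd3b7 without each of the 4 (0.0529 to 0.266).

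Among the falls, Mfsd2a had the largest change of the called genes. It encodes a transporter of lysophospholipids and was read at 31.6 and 14.7 CPM at CT16 and at 1.41 and 4.48 CPM at CT20 (log2 fold change -2.95, SE 0.45, adjusted p = 0.00298, edgeR). Angptl8, a secreted factor of feeding that acts on lipoprotein lipase, had 61.5 and 49.9 CPM against 11.4 and 16.6 CPM (log2 fold change -1.99, SE 0.37, adjusted p = 0.0160, edgeR). Lipg, endothelial lipase, had 4.42 and 3.19 CPM against 0.406 and 1.50 CPM (log2 fold change -1.95, adjusted p = 0.0422). These genes of lipid handling were all lower in both CT20 libraries. Their adjusted p without CT20 replicate 1 was 0.0514, 0.266 and 0.366, and without CT16 replicate 1 it was 0.0522, 0.117 and 0.227, while Lipg alone also missed the threshold without CT16 replicate 2 (0.0822). The log2 fold change of Mfsd2a was -2.29 without CT16 replicate 1 and -4.04 without CT20 replicate 2, and that of Lipg was -1.34 without CT20 replicate 1 and -3.23 without CT20 replicate 2.

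Plk3, a stress kinase, had 11.5 and 18.5 CPM at CT16 and 2.49 and 2.61 CPM at CT20 (log2 fold change -2.55, SE 0.46, adjusted p = 0.0122, edgeR). Rcan1, a regulator of calcineurin, had 13.3 and 14.7 CPM against 2.15 and 4.66 CPM (log2 fold change -2.02, SE 0.33, adjusted p = 0.00496, edgeR). Ppl, periplakin, had 11.1 and 13.7 CPM against 2.25 and 4.78 CPM (log2 fold change -1.80, adjusted p = 0.0304). For these genes the 2 times were separated by more than the spread within either time. The call of Plk3 held only without CT16 replicate 1 (adjusted p from 0.0559 to 0.150 in the other 3 fits), that of Rcan1 was lost without CT20 replicate 1 (0.0834), and that of Ppl held only without CT20 replicate 2 (0.0905 to 0.430 in the others). Without CT20 replicate 2 the log2 fold changes of Rcan1 and Ppl were -2.71 and -2.46. Pfkfb3, which makes the activator of glycolysis, fell by 1.20 (adjusted p = 0.0228), St3gal5, the GM3 ganglioside synthase, by 1.17 (adjusted p = 0.0123), and Efhd2 and Rsrp1 by 1.10 and 1.09 (adjusted p = 0.0237 and 0.0254). The call was lost without any of 3 libraries for Pfkfb3 and without either of 2 for each of the other 3 genes.

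Of the 22 genes tested of the glucocorticoid response and immediate early genes, 2 fell (0.275% of all genes) and none rose. Fkbp5, a co-chaperone of the glucocorticoid receptor and one of its targets, had 25.2 and 13.3 CPM at CT16 and 4.49 and 4.56 CPM at CT20 (log2 fold change -2.09, SE 0.32, adjusted p = 0.00298, edgeR). Mt1, a metallothionein, had 34.2 and 4.82 CPM at CT16 and 2.53 and 3.28 CPM at CT20 (log2 fold change -2.74, SE 0.59, adjusted p = 0.0435, edgeR). The value of Mt1 rested on a single library: without CT16 replicate 1 its log2 fold change was -0.72 (adjusted p = 0.743), and without CT20 replicate 1 and CT20 replicate 2 its adjusted p was 0.461 and 0.0929. Fkbp5 had an adjusted p of 0.0744 without CT16 replicate 1 and 0.0545 without CT20 replicate 1. Other targets of the receptor did not pass, with log2 fold changes of 0.42 for Tsc22d3, 0.29 for Sgk1 and -0.22 for Tat (adjusted p from 0.795 to 0.884). The immediate early gene Jun had 9.91 and 8.13 CPM against 4.16 and 3.88 CPM (log2 fold change -1.17, adjusted p = 0.104).

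In heme synthesis and drug oxidation, 3 of 24 genes fell (0.275% of all genes) and 20 of 24 had a log2 fold change below 0, against 51.5% of all genes. Alas1, the rate-limiting enzyme of heme synthesis, had 774 and 613 CPM at CT16 and 286 and 168 CPM at CT20 (log2 fold change -1.61, SE 0.28, adjusted p = 0.00876, edgeR). Por, which passes electrons to the cytochromes P450, had 397 and 268 CPM against 148 and 142 CPM (log2 fold change -1.20, SE 0.19, adjusted p = 0.00491, edgeR). Cyp2a5, a P450 of coumarin oxidation, had 390 and 270 CPM against 124 and 191 CPM (log2 fold change -1.06, adjusted p = 0.0437), and shares much of its sequence with Cyp2a4, so that the counts of the pair are uncertain. The other enzymes of heme synthesis, from Alad to Fech, had log2 fold changes from -0.28 to 0.33 with no call. Cyp2e1, one of the most read P450 genes, had -0.50 (adjusted p = 0.507) and Cyp3a11 had 0.10 (adjusted p = 0.948). In 12 of the 24 genes (50%) both CT20 libraries lay below both CT16 libraries, against 18.8% of all genes. Without CT16 replicate 1 the adjusted p of Alas1, Por and Cyp2a5 was 0.0874, 0.0789 and 0.326. Without CT20 replicate 1 that of Por and Cyp2a5 was 0.0561 and 0.621, and without CT20 replicate 2 that of Alas1 was 0.0670.

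Of the 25 genes tested of fatty acid oxidation and ketogenesis, 2 fell (0.275% of all genes). Cpt1a, the carnitine palmitoyltransferase through which fatty acids enter mitochondria, had 164 and 162 CPM at CT16 and 83.7 and 88.3 CPM at CT20 (log2 fold change -0.92, SE 0.16, adjusted p = 0.00928, edgeR). Vnn1, a pantetheinase and known target of PPARA, had 22.2 and 14.3 CPM against 5.79 and 8.41 CPM (log2 fold change -1.36, SE 0.25, adjusted p = 0.0163, edgeR). Cpt1a showed almost no spread within a time and had an adjusted p of 0.122 without CT20 replicate 1, and Vnn1 had 0.200 without CT16 replicate 1 and 0.263 without CT20 replicate 1. Of the rest, Ppara, the receptor that drives the pathway, had overlapping libraries at a log2 fold change of -0.04 (adjusted p = 0.983). In all, 22 of 25 lay below 0, which became 15 of 25 without CT16 replicate 1.

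Of the genes of the translation machinery, ribosomal protein genes were lower in value nearly throughout, with few calls. Of 79 cytosolic ribosomal protein genes, 78 had a log2 fold change below 0, against 51.5% of all genes tested, with a median of -0.60. In 63 of 79 (79.7%) both CT20 libraries lay below both CT16 libraries, against 18.8% of all genes. In the test 2 of 79 fell, against 0.275% of all genes. Rpsa had 13.4 and 16.6 CPM at CT16 and 3.75 and 8.46 CPM at CT20 (log2 fold change -1.28, SE 0.27, adjusted p = 0.0422, edgeR). Summed over the list, the reads came to 1961 and 2408 CPM at CT16 and to 1302 and 1602 CPM at CT20. Rpsa missed the threshold without all but CT20 replicate 2 (adjusted p from 0.0905 to 0.448). Its log2 fold change was -2.00 without CT20 replicate 2 and -0.83 without CT20 replicate 1. The side of the median did not depend on the scale or on a library, since it ran from -0.87 to -0.42 over 18 other ways of processing, while the number called ran from 0 to 10. Ribosomal protein genes have many near-identical pseudogenes, so their counts are uncertain.

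Of 28 translation factors, Eef2 and Pabpc1 fell (0.275% of all genes), 22 had a log2 fold change below 0 and 6 above, and 15 were lower without overlap (53.6%, against 18.8% of all genes), with a median of -0.33 (-0.16 without CT20 replicate 1). Eef2, the elongation factor of translocation, had 383 and 512 CPM at CT16 and 142 and 222 CPM at CT20 (log2 fold change -1.30, SE 0.22, adjusted p = 0.00589, edgeR). Pabpc1, the poly(A)-binding protein, had 34.1 and 42.7 CPM against 16.1 and 18.1 CPM (log2 fold change -1.17, SE 0.21, adjusted p = 0.0148, edgeR). Rack1, a ribosome-bound scaffold that is not in the list, fell by 0.86 (adjusted p = 0.0285). Eef1a1, the factor that brings tRNAs, and Eef1b2 had log2 fold changes of -1.04 and -0.95 without passing (adjusted p 0.112 and 0.0791). The initiation factors Eif4e, Eif4a1 and Eif4g1 had -0.41, -0.15 and -0.16 (adjusted p from 0.684 to 0.897). Eef2, Pabpc1 and Rack1 were not called without CT16 replicate 2 (adjusted p 0.0791, 0.149 and 0.267) or without CT20 replicate 1 (0.145, 0.205 and 0.360). A start with a C and at least 4 further pyrimidines, the form of the terminal oligopyrimidine start known from these mRNAs, was found in 24.1% of the 58 ribosomal protein genes with a promoter in the table and in 2.88% of the 9361 genes tested that had one. Among the called genes with a promoter in the table, 1 had it, Rack1.

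**Figure D3:**
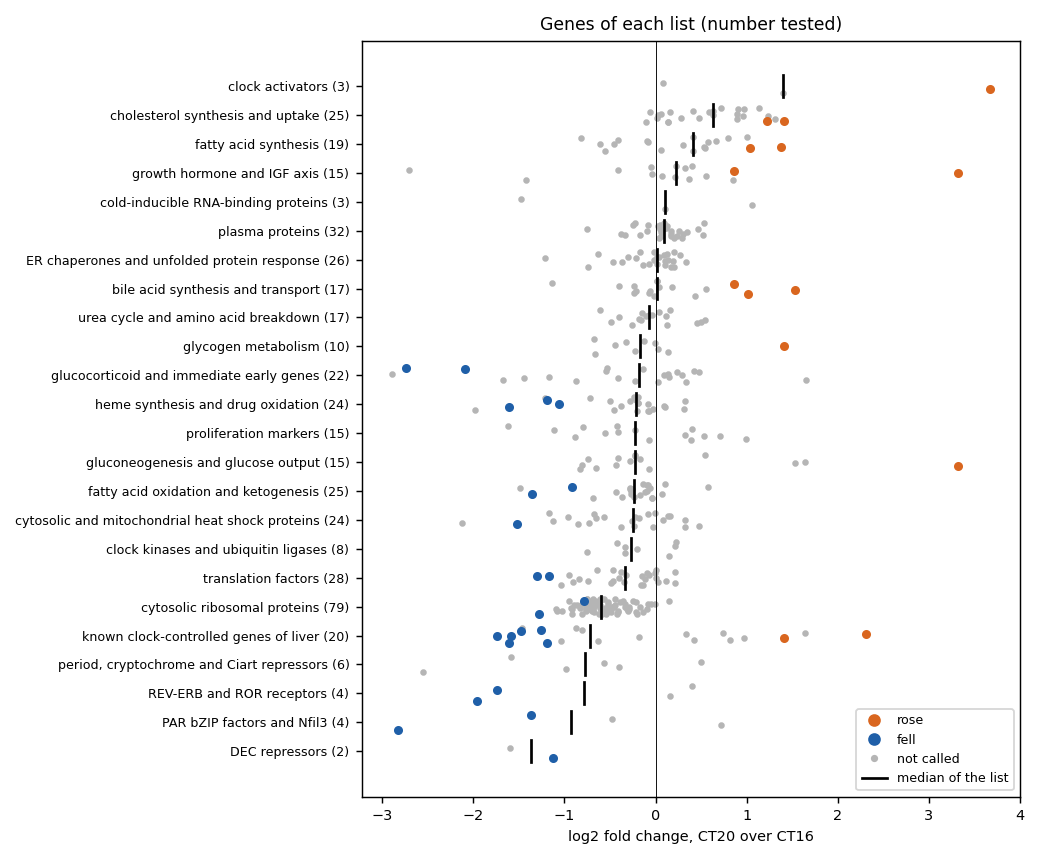
Log2 fold change of CT20 over CT16 (x axis) of each gene of the 24 lists, ordered by the list median (black bar), with genes that rose in orange, genes that fell in blue and the others in grey. The 79 ribosomal protein genes lie left of 0 except 1, and the 25 cholesterol genes right of 0 except 2. With the total count as scale, which moved the median of all transcripts to -0.34, these 2 cholesterol genes became 9.

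Of 24 heat shock protein genes, 1 fell, Hspa8 (0.275% of all genes). This constitutive chaperone of the cytosol had 228 and 250 CPM at CT16 and 92.8 and 74.0 CPM at CT20 (log2 fold change -1.52, SE 0.23, adjusted p = 0.00298, edgeR). The inducible Hspa1b had 6.497 and 3.94 CPM against 1.75 and 0.685 CPM (log2 fold change -2.13, adjusted p = 0.0731) and is a near-identical copy of Hspa1a, so that their reads are uncertain. Hsph1 had 62.3 and 86.3 CPM against 31.4 and 36.5 CPM (log2 fold change -1.13, adjusted p = 0.114), and Hsp90ab1 and Hsp90aa1 had -0.38 and -0.26 (adjusted p 0.670 and 0.890). Within the list the value of Hspa8 thus lay far from that of the cytosolic HSP90 genes. The list median was -0.25, and 0.01 without CT16 replicate 2. None of the 26 genes of the ER chaperones and unfolded protein response passed, with a median of 0.02 and libraries that overlapped for Hspa5 (479 and 748 CPM against 491 and 462 CPM). Herpud1, Creld2 and Atf6 stood lower at CT20 without overlap (log2 fold change -0.74, -1.22 and -0.30), and Calr higher (0.33).

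Other lists held few calls or none. None of 32 plasma protein genes passed, with log2 fold changes from -0.75 to 0.53 and a median of 0.09. Alb, the most read of them, had 32438 and 25253 CPM at CT16 and 26493 and 34627 CPM at CT20, which overlap. Of these, the 3 fibrinogen chains Fga, Fgb and Fgg had 0.53, 0.46 and 0.52 with adjusted p from 0.420 to 0.504. None of 17 genes of the urea cycle and amino acid breakdown passed (median -0.07), none of 15 proliferation genes, which were read at 18.2 to 35.3 CPM in sum, and none of the 3 cold-inducible genes, among which Srsf5 had 5.67 and 8.72 CPM against 12.5 and 17.3 CPM (log2 fold change 1.06, adjusted p = 0.104). The other cold-inducible genes were Rbm3, with 2.03 and 1.75 CPM against 0.215 and 1.10 CPM (log2 fold change -1.47, adjusted p = 0.528), lower at CT20 with no overlap, and Cirbp, with a log2 fold change of 0.10. Of the 15 genes tested of the growth hormone and IGF axis, Igfbp1 and Hsd3b5, a steroid enzyme of male liver, rose (0.215% of all genes). Igf1 had a log2 fold change of 0.21 and Ghr of 0.40 (adjusted p 0.852 and 0.482, edgeR). Cish, an inhibitor of growth hormone signalling, had 15.0 and 15.7 CPM at CT16 and 3.35 and 1.40 CPM at CT20 and yet did not pass (log2 fold change -2.71, SE 0.84, adjusted p = 0.270). In all, 33 of the 436 genes tested in the lists were called, against 0.491% of all genes. Since the lists were made with results of these data known, that share is no evidence on the lists.

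The 4 h step that lies 12 h away, from CT4 to CT8, shares no library with this one. The question was whether the genes called here moved the other way in it. Of the 57 genes, 55 had the opposite sign there, against 54.5% of all genes tested, and 21 were also called in that step, each with the opposite sign, where 0.74% of all genes were called. The exceptions in sign were Hmgcs1 (0.30 in that step) and Rpsa (-0.39). The difference between the steps was tested directly and passed for 254 of 17259 transcripts (1.47%) and 166 of 11616 genes (1.43%). Of the 57 genes, 50 were among these, but they had been chosen by one of the steps compared. The 7 others included Adgrf1, Hmgcs1, Zfand5, Hsd3b5, Rack1 and Rpsa.

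The genes with the lowest p for this difference were Usp2, Dbp, Lpin1, Elovl3 and Noct. Dbp had a log2 fold change of 6.03 from CT4 to CT8 and of -2.83 from CT16 to CT20, a difference of -8.85 (SE 0.57, adjusted p = 2.29e-08, edgeR). Usp2 had 5.601 and -1.74, a difference of -7.34 (SE 0.41, adjusted p = 5.17e-09, edgeR). Elovl3 moved by nearly the same size in both directions, with -2.39 and 2.31, a difference of 4.70 (SE 0.37, adjusted p = 2.43e-07, edgeR). Noct had 3.12 and -1.48, and Lpin1 had 1.92 and -1.59, both with an adjusted p of 2.43e-07 for the difference. In contrast Eef2 had 0.07 from CT4 to CT8 and Hspa8 had 0.40, neither called there, so that the differences of -1.36 (adjusted p = 0.0228) and -1.92 (adjusted p = 0.00215) came mostly from the night step in value. With the total count as scale 134 transcripts passed for the difference, and 138 to 393 without each of the 8 libraries, the lowest without CT8 replicate 1 (138) and CT4 replicate 2 (143) and the highest without CT20 replicate 2 (393).

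**Figure D4:**
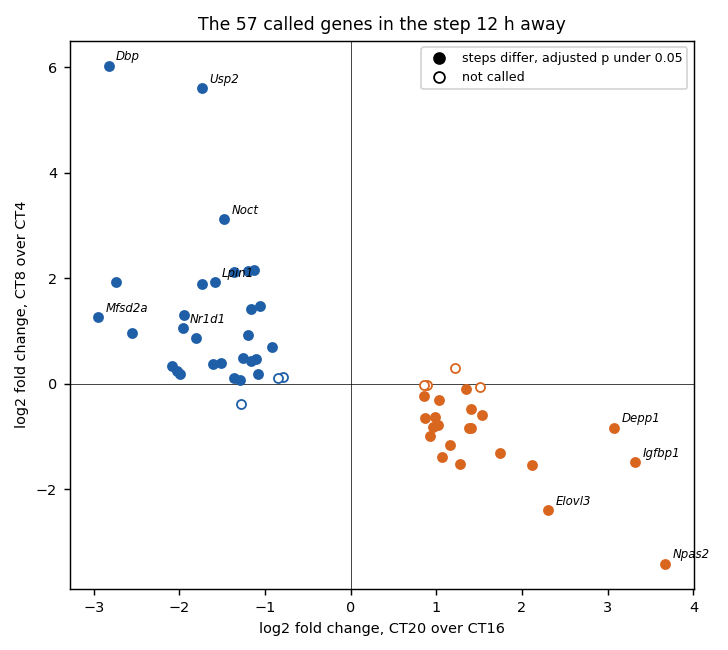
Log2 fold change of the 57 called genes from CT16 to CT20 (x axis) and from CT4 to CT8 (y axis), with genes that rose at night in orange and genes that fell in blue. Filled points are the 50 genes whose steps differ at an adjusted p under 0.05, and all but 2 genes lie at the upper left or lower right.

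The called genes were placed in the whole day by the times of their highest and lowest means. Of the 25 that rose, 17 had their lowest mean at CT12 and 7 at CT16. Their highest mean came at CT4 for 9, CT20 for 7, CT0 for 6 and CT24 for 3. Of the 32 that fell, 17 had their highest mean at CT16 and 14 at CT12, and 22 had their lowest at CT4. These counts use the CT16 and CT20 values that chose the genes and are a description.

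Single genes followed different courses. Elovl3 went from 22.4 ± 1.74 CPM (SD, n = 2) 4 h before the step to 40.7 ± 15.3 at its start, 201 ± 36.5 at its end and 306 ± 2.99 at CT24. Aqp8 took a like course, with 7.23 ± 0.379 CPM at CT12, then 13.0 ± 0.450, then 43.3 ± 1.82 at CT20 and 47.96 ± 1.11 at CT24. Lpin1 had its peak at CT12 with 191 ± 19.2 CPM, so that its night step from 39.3 ± 7.06 to 13.1 ± 3.27 CPM was part of a longer descent. Dbp likewise went from 44.3 ± 11.5 CPM at CT12 over 9.10 ± 0.305 at CT16 to 1.24 ± 0.873 at CT20. Hspa8 and Eef2 instead were highest at CT16, with 239 ± 15.1 and 448 ± 91.2 CPM, and stood at 83.4 ± 13.2 and 182 ± 56.7 CPM at CT20. Igfbp1 had 12.9 ± 13.2 CPM at CT12 with 22.3 and 3.53 CPM in the 2 libraries, so that its level before the step is uncertain.

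**Figure D5:**
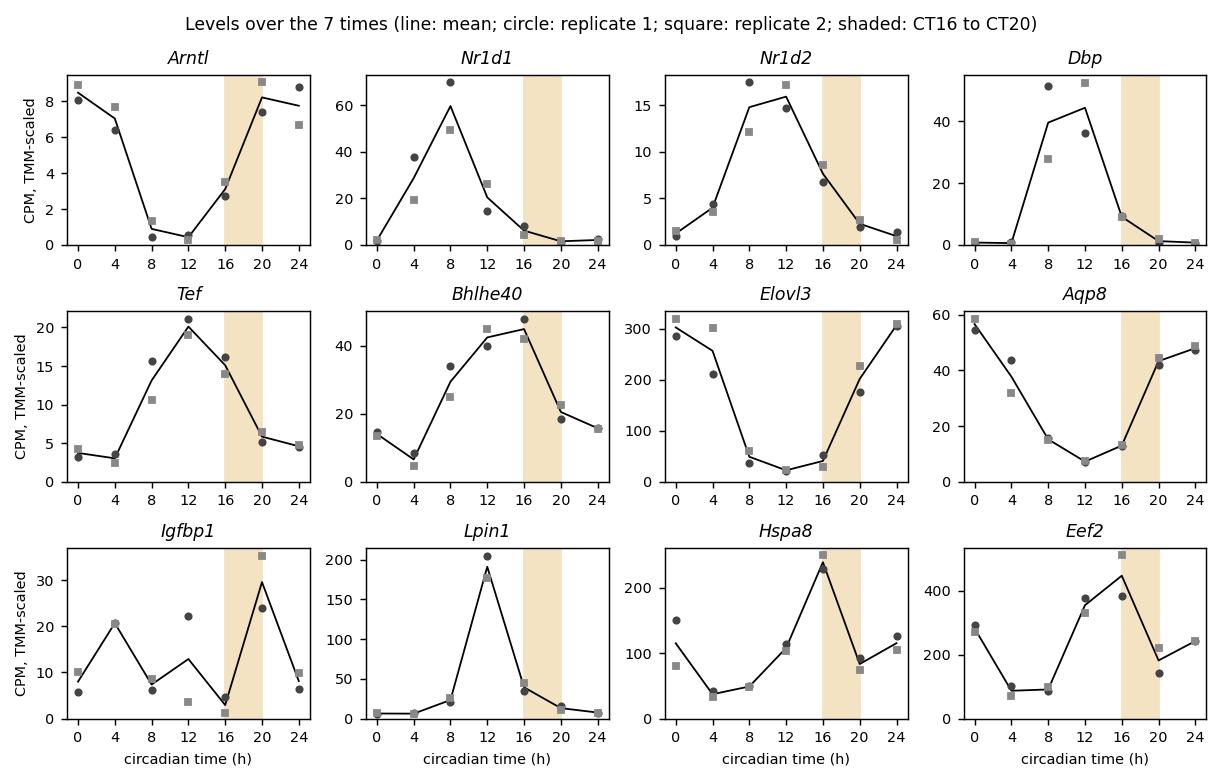
CPM on the TMM scale (y axis, from 0) of 12 genes at the 7 circadian times (x axis, h), with replicate 1 as circles, replicate 2 as squares, the mean of the 2 libraries as a line and the step from CT16 to CT20 shaded. Hspa8 and Eef2 are highest at CT16, while Elovl3, Aqp8 and Arntl climb through the shaded step.

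Finally, the share of reads in 5′UTRs was compared, since upstream reading can change apart from the level. Reads of the 5′UTR made up 5.93% and 5.72% of counts at CT16 and 9.74% and 6.26% at CT20. The 2 times do not overlap (exact permutation test, two-sided, p = 0.333, the smallest that 2 against 2 can give). But CT20 replicate 1 stands apart from its replicate and above the 6.32% to 8.63% of the 10 libraries of other times. Both CT16 libraries and CT20 replicate 2 lie below that range. Without the Mup transcripts the shares were 4.62% and 2.98% at CT16 and 4.58% and 3.86% at CT20, which overlap. For single transcripts, 5′UTR reads were set against CDS reads in the 7639 that averaged 10 or more counts in both. None passed (limma, adjusted p under 0.05), and 226 had an unadjusted p under 0.05 (2.96%). In simulated data with the log2 ratio of 200 transcripts changed by 3 at CT20, the same test recovered 65 of them. The lack of calls therefore does not show that the ratios were unchanged. Without CT20 replicate 2, where CT20 replicate 1 stands alone for its time and is assumed to vary like the other times, 360 passed, 36 with a higher and 324 with a lower ratio. Of the 57 called genes, 41 could be tested for the ratio, and none had an unadjusted p under 0.05. Dbp had 292 and 186 reads in the 5′UTR and 282 and 252 in the CDS at CT16, and 15 and 46 against 11 and 65 at CT20, so that both regions went down together (change of the log2 ratio 0.16, SE 0.47). The lowest p belonged to Pear1, a platelet receptor, with 16 and 12 reads in the 5′UTR at CT16 and 0 and 2 at CT20 (change of the log2 ratio -3.52, SE 0.68, adjusted p = 0.99985, limma). Mapkapk3, Zfp655, Spry1 and Pola2 followed, with at most 33 reads in the 5′UTR of any of the 4 libraries.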

How the data were processed

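The authors deposited, for each library, a raw count for each region (5′UTR, coding sequence, 3′UTR) of 28167 RefSeq transcripts, not normalized. The submitters' processing notes name Bowtie2 2.1.0.0, SAMtools 0.1.19.0, FastQC and mm10. By the study's methods, profiles along transcripts used reads that aligned to 1 place in the genome. How a read shared by transcripts of that place was counted is not given in the sources used here, and 1611 tested transcripts have the same counts as another. The 3 regions were summed. Transcripts that averaged 10 or more counts over 14 libraries were scaled by TMM and tested with edgeR 4.0.16 (R 4.3.3) in 7 time groups, with Benjamini-Hochberg adjustment. SE is the log2 fold change divided by the root of F. Ratios of 5′UTR to CDS reads were tested with limma 3.58.1 after adding 0.5 to each. DESeq2 1.42.0 was an alternative. Figures were drawn with Python, and the tests were tested on simulated data. Where a gene has several transcripts, the one with the highest mean count is given. Gene names and positions are from RefSeq (GRCm38.p6).

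Named were all core clock genes, the 12 largest rises and 12 largest falls among called genes with a mean of at least 100 counts, up to 4 genes of each other list with the lowest adjusted p and any member a sentence turns on, and the 5 genes with the lowest p for the ratio and for the difference of steps. Other called genes were named after their values were seen. The members and lists were chosen with earlier results of these data known. Replicates were labelled as such, with 2 mice at each time by the study's methods. A second run of CT16 replicate 2 is listed in the labels and was not used here. Values of some single genes are not reported here.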

Additional observations from a re-analysis of the deposited data

Results flagged for a closer look

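The step from CT16 to CT20 differed from the step from CT4 to CT8 in 254 transcripts, by the test of the difference itself (edgeR, adjusted p under 0.05). Reads of pancreatic acinar genes stood at 5042 CPM (5041.89) in CT20 replicate 2. With the 40 transcripts mostly in that library kept, 63 transcripts were called from CT16 to CT20, and without the library 179.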

How the results depend on the processing

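Of the 57 called genes, 8 were called in each of the 18 other ways of processing, none turned its direction, and 7 were lost in many of them (median 15 of 18 kept). The 82 transcripts called became 124 with a mean of at least 1 count, 42 with 1 transcript a gene, 33 with the 4 libraries alone and 213 with DESeq2's Wald test, and 34 to 179 without each of the 4 libraries (34 without CT20 replicate 1, 179 without CT20 replicate 2). They became 65 without the CT24 pair, a choice made after seeing the data. The difference of steps was called in 134 transcripts with the total count as scale, in 156 with 1 transcript a gene, and in 138 to 393 without each library. The ratio of 5′UTR to CDS gave 0 to 360 calls, and the lists 13 to 38, without each library. The cause was not tested in any of these. The correlation of replicate differences over transcripts was 0.08 between CT16 and CT20. It ran from -0.12 to 0.30 over 21 pairs of times, and was over 0.1 in 3 of them. A weak correlation does not show that the replicate series were alike. The share of Mup transcripts was higher in replicate 2 at every time except CT20, where it was 66.8% in replicate 1 and 56.0% in replicate 2. With the replicate number as a block the counts were 80 for the step, 255 for the difference of steps and 0 for the ratio. Genes with few reads, such as Npas2, set the limit of depth, and 2 libraries a time that of precision.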

Other observations

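Glycogen genes other than Ppp1r3c had no call. Gys2, the liver glycogen synthase, was read at 144 and 170.1 CPM at CT16 and at 96.5 and 100.5 CPM at CT20 (log2 fold change -0.67, adjusted p = 0.0888, edgeR). It was lower in both CT20 libraries. Among genes of amino acid breakdown, Tdo2, which opens the tryptophan ring, had a log2 fold change of -0.49 and Ddc, which makes amines from amino acids, had 0.50, neither of which passed (adjusted p 0.415 and 0.496).

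In the CT16 pair, Cyp2b10, a P450 known to be induced through the receptor CAR, had 48.9 CPM in replicate 1 and 6.89 CPM in replicate 2, and Cyp4a14, a fatty acid hydroxylase known as a target of PPARA, had 199 and 37.9 CPM. Mt1 and Mt2, both metallothioneins, had 34.2 and 12.1 CPM in replicate 1 and 4.82 and 2.43 CPM in replicate 2. These 4 genes were thus higher in the same library of the pair, and were chosen after their values were seen.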
